A study of Arabidopsis thaliana with 4 samples.

Results

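The arabinogalactan protein genes are the 30 protein-coding nuclear genes, of 27444 in the reference table, whose symbol is AGP followed by a number. They were selected on the peaks that they carry in these same data, so the peak scores and counts given here describe the genes and support no claim of an excess. The data are binding sites of SHORT LIFE (SHL), a plant chromatin protein whose BAH and PHD domains read modified histone tails, mapped by chromatin immunoprecipitation and sequencing (ChIP-seq). Both ChIP samples, and the 2 input samples of DNA taken without an antibody, came from whole Arabidopsis thaliana seedlings of ecotype Col-0, about 10 days old and kept in days of 16 h light and 8 h dark. All 4 samples shared one genotype, ebs shl, mutant for SHL and its relative EBS, and carried an HA-tagged SHL transgene driven by the native promoter; an anti-HA antibody pulled down the tagged protein. Peak lists of the ChIP samples, replicates 1 and 2, were analysed here, and the inputs and any untagged plants were not. Nothing in the labels says that the replicates were separate cultures, so differences between them may be technical. Because whole seedlings were used, a site bound in few cells and a site bound weakly in many cells cannot be told apart.

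Arabinogalactan proteins are cell surface glycoproteins in which a short protein backbone, rich in proline, alanine, serine and threonine, carries large branched arabinogalactan chains. Prolines of the backbone are hydroxylated by prolyl 4-hydroxylases, galactosyltransferases start the sugar chains on the hydroxyproline, and many of the proteins are held to the plasma membrane by a lipid (GPI) anchor. They are known for roles in cell expansion, root development, pollen and pistil. Classical members have a long proline-rich backbone, lysine-rich members carry a short basic stretch within it, and AG peptides have a very short mature backbone. AGP30 and AGP31 are chimeric proteins that end in a cysteine-containing PAC domain.

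SHL peaks lay on the bodies of 13 arabinogalactan protein genes in replicate 1 and of 13 in replicate 2, and 12 genes had one in both. Among all protein-coding genes the same was true of 10.2% in replicate 1, 10.0% in replicate 2 and 5.86% in both. Of the 12 genes, 5 had a score of 100 or more in both replicates (AGP4, AGP7, AGP11, AGP19 and AGP23), against 1.75% of all genes. Another 6 scored under 100 in both (AGP5, AGP10, AGP17, AGP27, AGP30 and AGP31), against 3.65% of all genes. AGP6 alone lay on different sides of 100 in the replicates, as did 0.463% of all genes. The members were chosen on these peaks, and nothing is read from the distance to these background shares. The score is the authors' own, from their peak caller; it rose from about 20 upwards, and values of different lists are set side by side without being ranked against each other. High scores made up 41.7% of the 12 genes and 29.8% of the 1608 protein-coding genes with a peak on the body in both replicates.

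**Figure D1:**
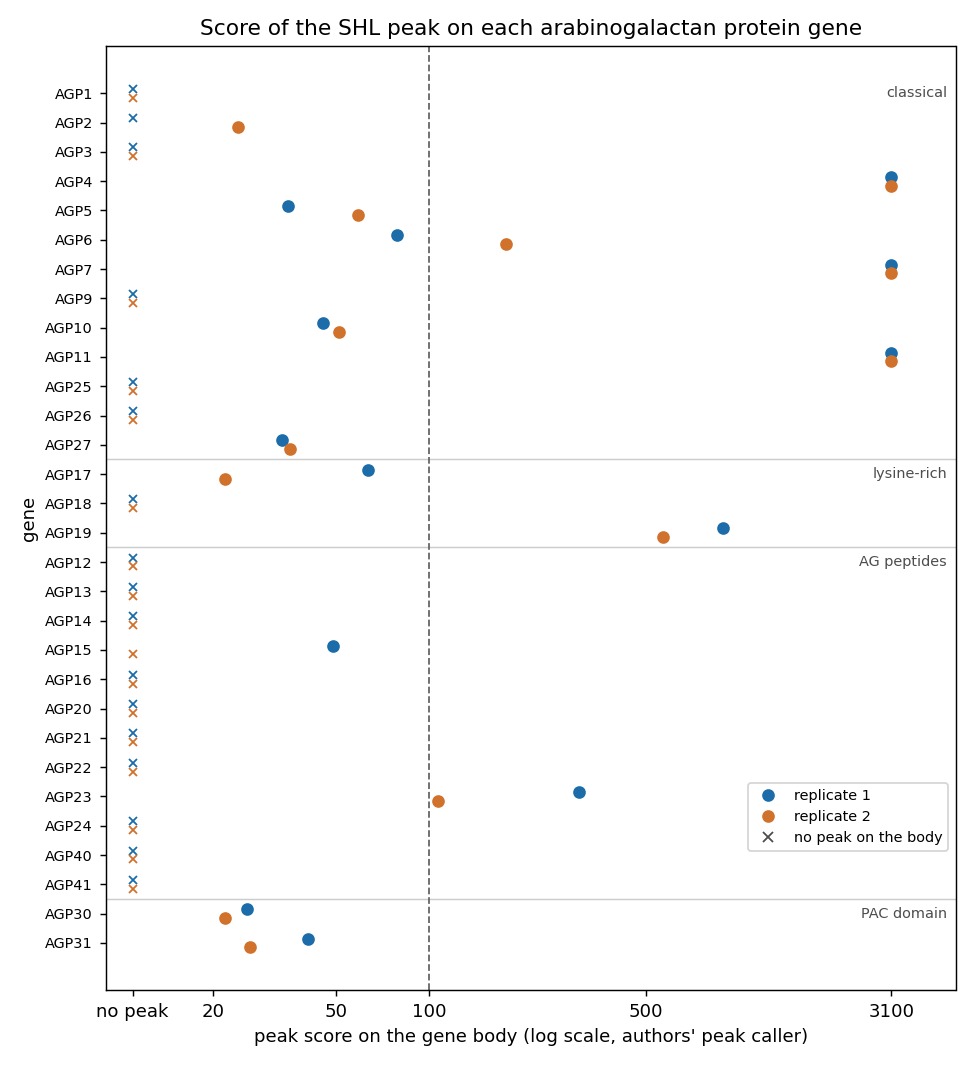
Score of the SHL peak on the body of each of the 30 arabinogalactan protein genes (x axis, log scale, no unit), with replicate 1 in blue and replicate 2 in orange; crosses mark genes without a peak on the body and the dashed line marks a score of 100. AGP4, AGP7 and AGP11 sit at 3100 in both replicates, while 10 of the 12 AG peptide genes have crosses in both.

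The classical genes held the highest scores of the family. AGP4, also known as JAGGER, acts in the pistil, where it helps to stop further pollen tubes from entering a fertilised ovule. Its peak scored 3100 in replicate 1, at chromosome 5, 3277091 to 3278998. In replicate 2 its peak scored 3100, at chromosome 5, 3275699 to 3279131 (TAIR10 coordinates, as for all intervals below). For every other gene with a peak in both replicates, the interval given is the region that merges the peaks of both lists. AGP7 also scored 3100 in replicate 1 and 3100 in replicate 2, over a merged region at chromosome 5, 26128018 to 26129976. AGP11, which is expressed in pollen, scored 3100 in both replicates as well, at chromosome 3, 258182 to 260123. A score of exactly 3100 was a tie shared by 225 nuclear peaks in replicate 1 and 195 in replicate 2, so these 3 genes cannot be ranked against each other. They were among the 0.557% of all protein-coding genes whose best body peak reached 3100 in both lists.

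AGP6 is the close relative of AGP11 and acts with it in pollen development, but its peak scored far lower. It scored 78.71 in replicate 1 and 176.7 in replicate 2, at chromosome 5, 4635652 to 4636701. Those values lay higher than 68.4% of the peaks of replicate 1 and 76.6% of those of replicate 2, where ties are counted by their middle rank. AGP11, by the same measure, stood at 96.5% and 96.9%. Rules for reads that match both genes are not given in the sources used here, and gene sequences were not compared, so any reads exchanged within the pair could not be seen.

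The remaining classical genes with a peak in both replicates had low scores. AGP5 scored 34.87 in replicate 1 and 58.57 in replicate 2, at chromosome 1, 12916652 to 12918419. AGP10 scored 45.31 and 51.09, at chromosome 4, 5791940 to 5793290. AGP27 scored 33.52 and 35.39, at chromosome 3, 1928644 to 1930427. Among these 3 genes AGP10 had the highest score in replicate 1 and AGP5 in replicate 2. AGP10 and AGP27 stood at similar ranks in both lists, at 55.8% and 58.7% for AGP10 and at 42.6% and 44.9% for AGP27. AGP2 had a peak of 24.01 in replicate 2 only. AGP1, AGP3, AGP9, AGP25 and AGP26 had none on the body. That left 7 of 13 classical genes with a peak in both replicates, against 5.86% of all protein-coding genes. Of the 13, 3 had a high score in both, against 1.75% of all protein-coding genes.

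The 3 lysine-rich genes differed from each other. AGP19, which promotes growth and cell expansion, scored 889.99 in replicate 1 and 567.6 in replicate 2, at chromosome 1, 25808830 to 25810478. AGP17, a gene needed for efficient Agrobacterium attachment to roots, scored 63.15 and 21.79, at chromosome 2, 9844047 to 9845231. AGP18, which acts in the selection of the functional megaspore, had no peak on its body in either list. Its nearest peaks lay 11456 bp away in replicate 1 and 10856 bp away in replicate 2. AGP17 thus stood above 64.9% of the peaks of replicate 1 but only 10.3% of those of replicate 2, close to the lowest scores in that list.

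Both PAC-domain genes had peaks of low score in both lists, as did 3.65% of all protein-coding genes. AGP31, expressed in vascular tissue, scored 40.59 in replicate 1, near the median of all nuclear peaks there (39.15), and 26.26 in replicate 2, below the median of that list (39.89), at chromosome 1, 9888266 to 9891084. AGP30, a root gene with a role in seed germination, scored 25.73 and 21.94, at chromosome 2, 14293904 to 14295460. The lowest scores of any nuclear peak were 20.01 in replicate 1 and 20 in replicate 2, so AGP30 lay among the lower-scoring peaks of both lists.

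Of 16 AG peptide symbols listed, 12 were found in the reference, and only those were examined. Of the 12 AG peptide genes, 10 carried no SHL peak on the body, and AGP23 alone had one in both replicates (8.33%, near the 5.86% of all protein-coding genes). AGP23 had a score of 304.38 in replicate 1 and 106.31 in replicate 2, at chromosome 3, 21383572 to 21384981. It is a pollen-expressed gene, and its peaks were the closest above 100 in the family in replicate 1 and in replicate 2. The closest below 100 were the 78.71 of AGP6 in replicate 1 and the 58.57 of AGP5 in replicate 2. AGP15 had a peak of 48.91 in replicate 1 only, at chromosome 5, 3783871 to 3785341. No peak lay on the bodies of AGP12, AGP13, AGP14, AGP16, AGP20, AGP21, AGP22, AGP24, AGP40 and AGP41. Among them, AGP21 acts in root hair patterning, and AGP40 is expressed in pollen like AGP23. The other subgroups together had 11 of 18 genes with a peak in both replicates; the difference from the AG peptides was not tested.

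AGP15 and AGP2 were the 2 genes of the 30 with a peak on the body in 1 replicate only (6.67%). That was near the 8.47% of all protein-coding genes, and nothing is read from it. Each of the 12 genes found in both lists had 1 peak per list in its region, and the midpoints of the pair lay between 3 bp (AGP7) and 687 bp (AGP31) apart, with a median of 133 bp. The shared stretch made up a median of 91.65% of the replicate 1 peak and 87.25% of the replicate 2 peak. AGP30 was the least alike, with 394 bp shared, or 39.0% of the replicate 1 peak and 41.9% of the replicate 2 peak. In AGP27 the shared stretch was 87.4% of the replicate 1 peak but 38.8% of the wider replicate 2 peak.

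**Figure D2:**
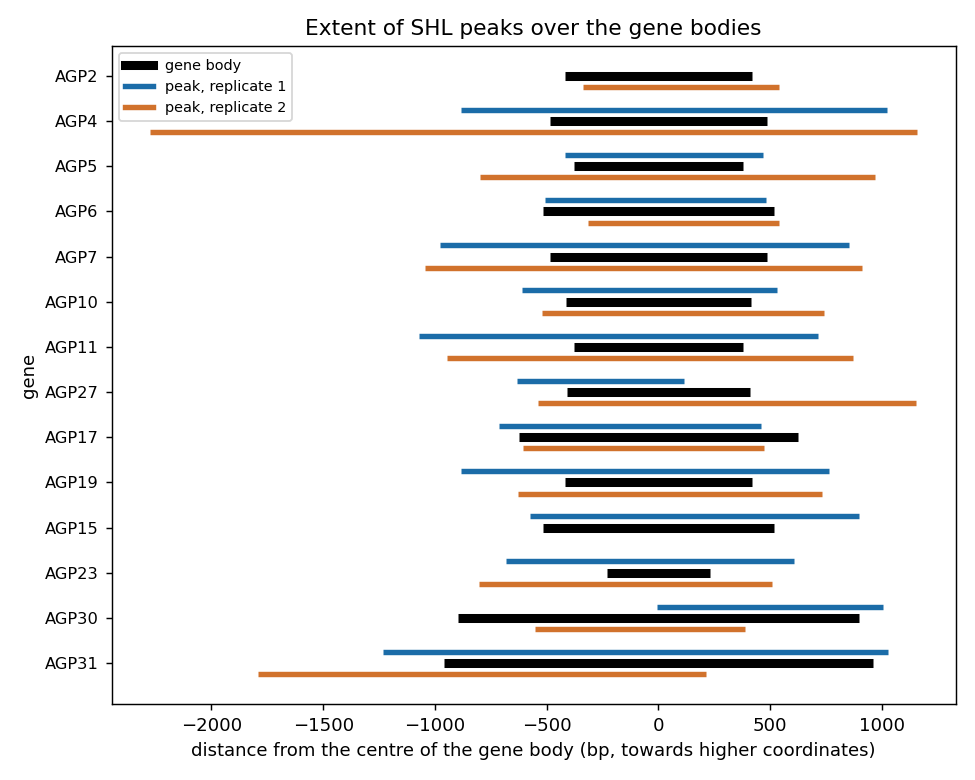
Extent of the SHL peaks (blue, replicate 1; orange, replicate 2) over the bodies (black) of the 14 arabinogalactan protein genes with a peak on the body in either replicate, in bp from the centre of the body, with higher chromosome coordinates to the right and strand not considered. Peaks on AGP4, AGP5, AGP7, AGP10, AGP11, AGP19 and AGP23 run past both ends of the body in both replicates, while those on AGP30 cover about 50% of it.

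Arabinogalactan protein genes are short, with a median body of 858 bp (range 427 to 1915 bp) against 2078 bp for all protein-coding genes, and the peaks usually spanned them. In 7 of the 12 genes the whole body lay within the peak in both replicates, namely AGP4, AGP5, AGP7, AGP10, AGP11, AGP19 and AGP23. At least 50.4% of the body was covered in each replicate in all 12. Over the length range of the family, 815 protein-coding genes had a peak in both lists. At least 50% of the body was covered in 615 of them (75.5%), and the whole body in 150 (18.4%). The midpoint lay inside the body in 75.5% of them. The peak midpoint lay inside the body in both replicates in 11 genes; the exception was AGP4, where the replicate 2 peak of 3433 bp was centred outside the gene, at -559 bp from the centre of the body (towards lower coordinates). Among all protein-coding genes between 500 and 1000 bp long with a peak in both lists, the whole body was covered in 59 of 172 (34.3%), and the midpoint lay inside in 108 (62.8%). For the 7 arabinogalactan protein genes of that length the counts were 6 (85.7%) and 6 (85.7%). These shares describe placement within genes chosen for having peaks, and the differences were not tested.

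The 5 peaks of high score on the family in replicate 1 were 1291 to 1908 bp wide and the 6 in replicate 2 were 856 to 3433 bp wide, with medians of 1789 and 1586.5 bp. Over all nuclear peaks of 100 or more the median widths were 1367 bp and 1543 bp. Peaks of low score on the family had median widths of 1077.5 bp in replicate 1 and 1263 bp in replicate 2, and all low-scoring peaks had medians of 1017 and 1135.5 bp. The widest low-scoring peaks, of 2257 and 2007 bp, belonged to AGP31, the longest gene of the family. The narrowest was the 749 bp peak on AGP27 in replicate 1.

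Median gene length was similar with and without peaks. The 12 genes with a peak in both replicates had a median body of 900 bp, and the 16 without any peak on the body had one of 858 bp. Those of high score in both lists were 460 to 974 bp long, and those of low score in both were 760 to 1915 bp long. Of the 18 arabinogalactan protein genes between 500 and 1000 bp long, 7 (38.9%) had a peak in both replicates, against 5.48% of all genes of that length. Over the length range of the whole family the share of all genes was 7.20%, and 2.10% had a score of 100 or more in both lists. In the class up to 500 bp, 1 of 3 family genes had a peak in both replicates, against 4.35% of all genes of that length. Between 1000 and 1500 bp it was 2 of 5, against 8.6% of all genes. Between 1500 and 2000 bp it was 2 of 4, against 7.25%.

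**Figure D3:**
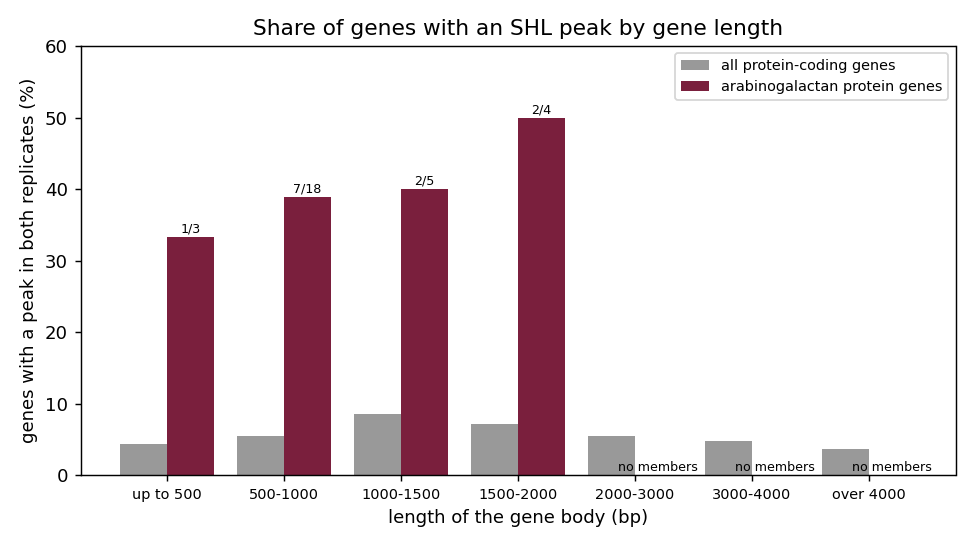
Percentage of genes with an SHL peak on the body in both replicates (y axis) by length of the gene body in bp (x axis), for all protein-coding genes (grey) and arabinogalactan protein genes (dark red), with counts of the latter above each bar. Shares of all genes stay between 3.69% and 8.6% in every length class, and no arabinogalactan protein gene is longer than 1915 bp.

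Some of the peaks covered more than the arabinogalactan protein gene. The bodies of AGP4, AGP10 and AGP19 overlap another protein-coding gene in the reference (AT5G10435, AT4G09035 and AT1G68723), and a peak there cannot be assigned to either gene. AGP11 peaks in both replicates also touched a tRNA gene, AT3G01705. In replicate 1 alone, the AGP19 peak reached TADA and the AGP23 peak reached AT3G57700. In replicate 2 alone, the AGP4 peak reached AT5G10420 and the AGP27 peak reached NHX4. Where a peak reaches further genes, it cannot be assigned to a single gene either. The nearest non-overlapping protein-coding genes on each side of the 12 genes gave 24 neighbours, of which 6 had a peak on the body in both replicates, against 5.86% of all protein-coding genes. In 5 of these the peak was the one that also covered the arabinogalactan protein gene: both neighbours of AGP11, both neighbours of AGP23, and AT1G68730 beside AGP19. Those peaks extended over gaps of 7 to 338 bp. The last was LEC2, a master regulator of embryo and seed maturation next to AGP31, which had peaks of its own that scored 45.6 and 21.64; the gap between the genes was 5851 bp. Neither neighbour had a peak on its body in either list for AGP5, AGP6 and AGP10. Of 36 neighbours of the other 18 arabinogalactan protein genes, 3 had a peak in both lists (8.33%), near the share of all genes, and the 2 sets of neighbours were not tested against each other.

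The 1 kb flanks added little. With the flanks included, 12 arabinogalactan protein genes had a peak in both replicates, the same genes as on the bodies, against 8.66% of all protein-coding genes. Replicate 2 alone had flank peaks beside 3 genes without one on the body. The peak beside AGP3 scored 20.01, lay 724 bp from the body and had its midpoint in AT4G40080. The peak beside AGP22 scored 29.72, lay 171 bp away and had its midpoint in AT5G53260. That beside AGP41 was of another order, with a score of 3084.94 at chromosome 5, 8153196 to 8156903; it began 189 bp from AGP41, touched the body of WRKY30, a transcription factor gene of the stress response, and had its midpoint in no protein-coding gene. The nearest peak to AGP41 in replicate 1 scored 23.71 and lay 1755 bp away.

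For the 16 genes with no peak on the body in either list, the nearest peak was at a median distance of 13912 bp in replicate 1 (1755 to 52356 bp) and 10500 bp in replicate 2 (171 to 50431 bp). AGP9 and AGP3 were the most remote from any replicate 1 peak, at 51972 and 52356 bp. AGP25 lay only 2184 bp from a peak of 431.9 in replicate 1 and 2185 bp from one of 321.77 in replicate 2, on the body of its neighbour TLP11. Genes with peaks in both replicates were found on all 5 chromosomes, with 3 of 4 family genes on chromosome 1, 2 of 6 on chromosome 2, 3 of 6 on chromosome 3, 1 of 4 on chromosome 4 and 3 of 10 on chromosome 5. Over all protein-coding genes the share per chromosome was 5.53% to 6.35%.

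Genes that make or resemble arabinogalactan proteins were examined by lists written from general knowledge. None of 10 genes of arabinogalactan chain synthesis and none of 4 prolyl 4-hydroxylase genes had a peak on the body in either list. Only 10 of the 21 synthesis symbols listed were found in the reference. The other lists hold genes matched by symbol, so whole families may not be covered. The share of all protein-coding genes with one in both lists was 5.86%, and nothing is read from counts near it in lists this small. Fasciclin-like arabinogalactan protein genes, whose products combine such a backbone with fasciclin adhesion domains, had 2 of 19 genes with a peak in both replicates (10.5%). FLA8, which also bears the synonym AGP8 but is no member by symbol, scored 568.57 in replicate 1 and 465.76 in replicate 2. FLA10 scored 141.54 and 117.44, so both genes were of high score in both lists. Early nodulin-like genes, with a plastocyanin-like domain, had 1 of 22 (4.55%), which was ENODL4 with scores of 79.13 and 51.37. Neither of the 2 xylogen genes had a peak in both.

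Other genes for hydroxyproline-rich wall proteins carried peaks too. All 4 proline-rich protein genes had one in both replicates, although PRP2 scored 1300.97 in replicate 1 and 25.47 in replicate 2. PRP4 scored 35.88 and 76.9, PRP3 scored 27.76 and 26.58, and PRP1 scored 94.95 and 25.37. Extensins, the rod-like proteins that crosslink in the wall, had 2 of 6 genes, EXT10 with scores of 29.54 and 52.99 and EXT3 with 23.8 and 20.58. Leucine-rich repeat extensins had 2 of 3. LRX3 scored 3198.12 and 3053.42, while LRX2 scored 47.72 and 99.5. Taking these 8 lists as one, 11 of 70 genes (15.7%) had a peak on the body in both replicates. The share was 40.0% for the 30 arabinogalactan protein genes and 5.86% for all protein-coding genes. The pool joins unlike lists, from 0% for the enzyme and xylogen lists to 66.7% for leucine-rich repeat extensins and 100% for proline-rich protein genes. Both of the latter lists, of 3 and 4 genes, stood above the arabinogalactan protein genes in this share of genes with any peak. A score of 100 or more in both replicates was found in 1 of the 3 and 0 of the 4. It was found in 16.7% of the arabinogalactan protein genes and 1.75% of all protein-coding genes. The family was chosen on its peaks, so these shares are given side by side without a test.

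**Figure D4:**
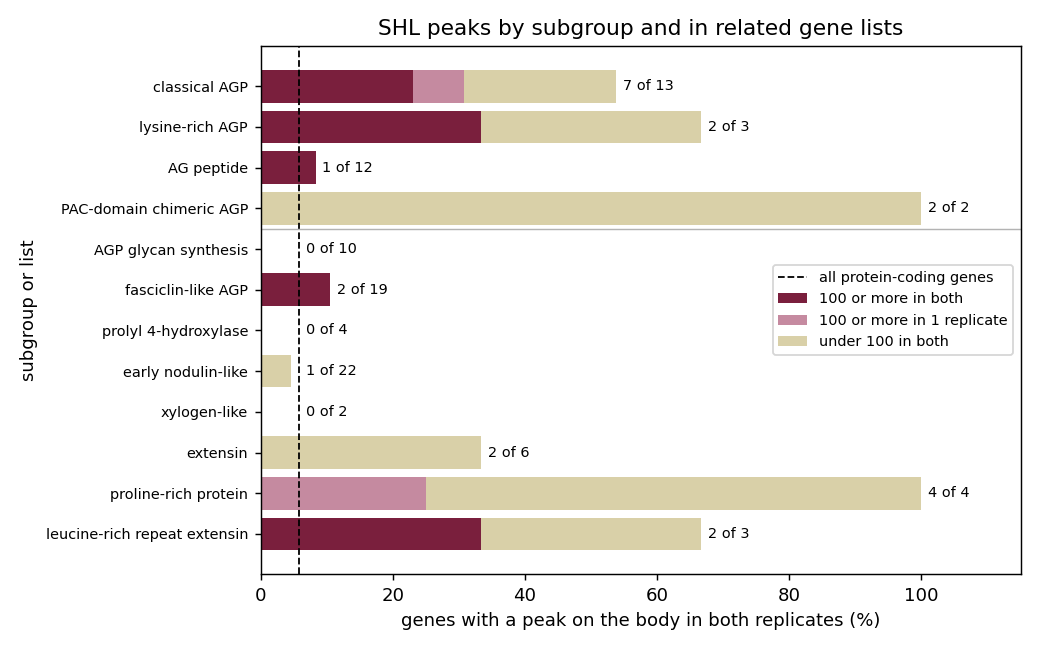
Percentage of genes with an SHL peak on the body in both replicates (x axis) in the 4 subgroups of arabinogalactan protein genes (above the grey line) and in 8 related lists (below it), split by score class, with counts beside the bars; the dashed line marks the 5.86% of all protein-coding genes. Classical genes reach 7 of 13 and AG peptide genes 1 of 12, and the enzyme genes found for these lists are at 0.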

How the data were processed

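The submitters' processing notes name the TAIR10 build and the tools MACS 1.4, Bowtie2 2.2.8 and SAMtools 1.3; their settings, any filter and any control are not given in the sources used here. Peaks were called by the authors on each ChIP sample separately (3678 and 3494 deposited peaks, of which 3668 and 3487 were nuclear). The deposited score follows, by MACS convention, −log10 of the p-value multiplied by 10; the lists have no header to say so. Read depth is unknown here, so no interval or floor was given.

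Gene bodies came from the RefSeq table of TAIR10.1, without strand or sequence, so no gene coordinate is printed. Midpoints of the 2186 merged regions fell in protein-coding bodies most often with no shift (57.0%). The share was 46.9% and 49.0% after shifts of -500 and 500 bp. It was 29.0% and 29.8% after shifts of -1500 and 1500 bp, and 38.3% and 37.4% after -3000 and 3000 bp.

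A peak counted if it overlapped a body, or a flank of 1 kb, by at least 1 bp; a gene's score is its best peak. Overlap code was tested on simulated data. Python 3.11.15, numpy 2.4.6 and pandas 2.3.3 were used. No statistical test was run. Genes and lists were chosen with earlier results of these data known. All genes with a body peak are named; in other lists, up to 4 genes with peaks in both replicates. Synthesis genes were matched by symbol or synonym (10 of 21 found), other lists by symbol; PRP39, a splicing factor, was dropped. Protein and promoter sequences had been planned and are not used here.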

Additional observations from a re-analysis of the deposited data

How the results depend on the processing

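The count of 12 arabinogalactan protein genes with a peak in both replicates was 12 with at least 50% of the body covered, 10 with a reciprocal overlap of 50% (AGP27 and AGP30 lost), 11 by the midpoint of the merged region (AGP4 lost), 13 in either replicate alone and 13 with the synonym AGP8 admitted. It fell to 6 with peaks of 50 or more and to 5 with peaks of 100 or more. The share of all protein-coding genes, 5.86%, was 3.04% with 50% of the body covered. It was 4.84% with the reciprocal overlap of 50% and 4.58% by the midpoint of the merged region. With scores of 50 or more it was 2.45%, and with 100 or more 1.75%. Without replicate 1 and without replicate 2 it was 10.0% and 10.2%. The settings kept fewer peaks, asked for a closer overlap or placement, or needed only 1 list. Why the values changed was not tested. With peaks of 100 or more, 5 genes were left of 13 in replicate 1 and 6 of 13 in replicate 2. Including flanks, the count in both replicates was 6 with scores of 50 or more, 13 with flanks of 2000 bp (AGP41 added), and 13 to 16 in single replicates. The AGP41 peaks were different ones on opposite sides of the gene. That of replicate 1 scored 23.71 at 1755 bp, and that of replicate 2 scored 3084.94 at 189 bp. The 5 genes of high score numbered 6 with a threshold of 50 and 4 with one of 200, where AGP23 was lost, and 5 to 6 in single replicates. The 11 genes of the related lists became 16 without replicate 1 and 13 without replicate 2, against 10.0% and 10.2% of all genes. For the flank settings, the high-score counts in single replicates and the threshold of 200, no share of all genes is given here. Nothing is read from those counts. The synonym, the single-replicate settings of the related lists and the settings within each replicate were chosen after seeing the data. No paired analysis was possible because the results are counts that come from no test, over the lists of a single group, the ChIP samples.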
